A study of Homo sapiens with 16 samples.

Results

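The genes described are those that encode the constitutive proteasome and the proteins that activate or assemble it. They were taken from the count table as protein-coding genes whose symbol starts with PSMA, PSMB, PSMC, PSMD, PSME, PSMF or PSMG followed by a digit, without PSMB8, PSMB9, PSMB10 and PSMB11. The rule gave 45 of 58735 genes. By their known roles, 7 encode the alpha ring of the core particle (PSMA1 to PSMA7), 7 its beta ring (PSMB1 to PSMB7), 6 the ATPases of the base (PSMC1 to PSMC6) and 11 the other subunits of base and lid (PSMD1 to PSMD4, PSMD6 to PSMD8 and PSMD11 to PSMD14). A further 5 encode other activators or the inhibitor protein PI31 (PSME1 to PSME4 and PSMF1), and 7 encode assembly factors (PSMG1 to PSMG4, PSMD5, PSMD9 and PSMD10). The last 2 fit the letters of the rule and stand outside the particles of these cells: PSMA8 is an alpha subunit of the male germ line, and PSMC3IP is a meiotic recombination factor.

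The study compared breast cancer cell lines grown as flat monolayers and as spheroids, round 3-dimensional aggregates, collected 10 and 20 days after seeding. HCC1806 and BT474 were sequenced as monolayers, day 10 spheroids and day 20 spheroids, and CAL148 and ZR-75-30 as monolayers, with 2 libraries in each of the 8 groups. As background, HCC1806 and CAL148 are known as triple-negative lines, and an amplified ERBB2 gene is known in BT474 and in ZR-75-30. HCC1806 and ZR-75-30 were kept in RPMI medium and BT474 and CAL148 in DMEM, with 10% fetal bovine serum in both, and no genotype change or drug is named for any group. Each group is 1 established line, line and medium cannot be told apart where they differ together, and a treatment label reads monolayer for all 16 libraries, so the culture was taken from the sample titles. The labels do not say that the 2 libraries of a group came from separate cultures, so p-values measure only the spread between these libraries, which may be technical.

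The proteasome is the barrel-shaped protease that degrades ubiquitin-tagged proteins. Its core particle holds 2 outer alpha rings, which gate the channel, and 2 inner beta rings, in which PSMB6, PSMB7 and PSMB5 carry the caspase-like, trypsin-like and chymotrypsin-like sites. The regulatory particle docks on the alpha ring, where its lid removes ubiquitin and the ATPase ring of its base unfolds the substrate. Other caps include PA28 alpha and beta (PSME1 and PSME2), an interferon-inducible pair linked to antigen processing, PA28 gamma (PSME3) in the nucleus and PA200 (PSME4). When proteasome activity falls, the transcription factor encoded by NFE2L1 binds antioxidant response elements in proteasome gene promoters and raises many of them together, and proteasome inhibitors are in clinical use against myeloma.

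Promoter sequences of 4 members are shown because their levels carry the 2 main patterns below: PSMD8, PSMC4, PSMB3 and PSMD3 were among the genes lower in HCC1806 spheroids, and PSMB3 and PSMD3 differed most between the lines. Each runs 5′ to 3′ on the gene's strand, over a window that spans the annotated start, most of it upstream, as in RefSeq (GRCh38.p14). Capitals mark matches, on either strand, to TGACNNNGC, the core of the antioxidant response element, or to CCAAT, the box bound by NF-Y. The 2 motifs cannot overlap by more than an end base, and no match says only that these letters are not in this window.
PSMB3 (chr17:38752491-38752790, plus strand): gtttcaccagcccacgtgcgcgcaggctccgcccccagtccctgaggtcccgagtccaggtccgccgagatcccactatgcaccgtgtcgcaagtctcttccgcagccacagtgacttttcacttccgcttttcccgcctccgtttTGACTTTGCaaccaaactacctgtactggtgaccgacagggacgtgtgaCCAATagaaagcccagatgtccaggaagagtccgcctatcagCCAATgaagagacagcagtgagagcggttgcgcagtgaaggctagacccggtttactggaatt
PSMD3 (chr17:39980557-39980856, plus strand): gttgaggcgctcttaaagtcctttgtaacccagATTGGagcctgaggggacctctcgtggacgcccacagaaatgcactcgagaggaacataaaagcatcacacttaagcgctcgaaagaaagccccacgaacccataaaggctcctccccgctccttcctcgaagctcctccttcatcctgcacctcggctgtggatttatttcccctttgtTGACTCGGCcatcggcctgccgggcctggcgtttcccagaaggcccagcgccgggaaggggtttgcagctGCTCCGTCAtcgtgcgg
PSMC4 (chr19:39970915-39971214, plus strand): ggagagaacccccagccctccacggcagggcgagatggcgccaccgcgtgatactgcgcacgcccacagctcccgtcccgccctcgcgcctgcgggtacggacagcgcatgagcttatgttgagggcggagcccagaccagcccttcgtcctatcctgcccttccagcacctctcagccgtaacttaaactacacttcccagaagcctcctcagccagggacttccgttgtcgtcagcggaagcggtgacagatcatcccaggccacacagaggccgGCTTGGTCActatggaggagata
PSMD8 (chr19:38374321-38374620, plus strand): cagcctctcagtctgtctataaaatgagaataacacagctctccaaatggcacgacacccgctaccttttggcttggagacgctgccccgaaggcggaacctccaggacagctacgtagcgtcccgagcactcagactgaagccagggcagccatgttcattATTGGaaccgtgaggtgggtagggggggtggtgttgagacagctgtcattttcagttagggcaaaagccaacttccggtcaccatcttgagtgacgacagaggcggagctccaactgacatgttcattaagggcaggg
The PSMB3 promoter holds 1 match to TGACNNNGC and 2 to CCAAT, that of PSMD3 holds 2 and 1, that of PSMC4 1 and 0, and that of PSMD8 0 and 1. RefSeq promoters were matched by symbol for 39 of the 45 members, 48 promoters in all. TGACNNNGC lay in 14 of these 48 (29.2%) and in 13.3% of all 35116 promoters of the same length, and CCAAT in 20 (41.7%) and in 34.6%. These shares describe letters in a window and not bound sites.

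Levels are given as normalised RPKM, the RPKM formula with the deposited gene length and the library's effective size (TMM scaling, a trimmed mean of ratios between libraries). PSMA8 had 0 counts in all 16 libraries, where 3 counts was taken as the limit that a count of 0 allows. The other 44 members passed the count filter of every fit. Their levels spanned a wide range per length. The median over the 16 libraries was highest for PSMB3 at 592. It was 137 for PSMB5 and 113 for PSMD2, and 0.676 for PSMA2, 0.815 for PSMA6 and 0.675 for PSMD9. The low values of PSMA1, PSMA2, PSMA6 and PSMD9 come with an overlap: 88.6%, 100%, 87.6% and 68.3% of their coding bases lie within exons of another annotated gene on the same strand (GENCODE 29, whose gene starts and ends equal the deposited ones). How the counting treated reads of 2 genes is not given in the sources used here, so the levels of these 4 are uncertain. On the opposite strand, 47.7% of the coding bases of PSMC1 and 30.0% of those of PSMD7 lie within another gene's exons, and since the strand setting is not given either, reads of the 2 genes cannot be told apart there.

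Total counts ran from 29696358 to 72489002 per library, and 2 monolayer libraries stood apart. Mitochondrially encoded protein-coding genes held 14.9% of the counts in HCC1806 monolayer replicate 1 and 0.559% in replicate 2, 17.7% in ZR-75-30 replicate 2 and 1.60% in replicate 1, and 0.701% to 5.20% in the other 12. Over 8 interferon-response genes the summed level was 5280 normalised RPKM in HCC1806 monolayer replicate 1 and 91.4 in replicate 2, against 793 to 801 in day 10 spheroids and 346 to 365 in day 20 spheroids of that line. Over 5 proliferation genes, which include MKI67 and TOP2A, it was 51.8 and 349 in the same 2 monolayers. Of the epithelial markers, only EPCAM was even, between 83.7 and 139 in all libraries. KRT8 ran from 31.9 to 570, KRT18 from 40.7 to 648 and KRT19 from 336 to 1778. CDH1 read 1.35 and 1.58 in ZR-75-30 and 21.6 to 136 in the other lines. The basal markers (KRT5, KRT14, KRT17 and TP63) summed to 832 to 1852 in HCC1806 and to at most 0.72 elsewhere. Leukocyte markers summed to at most 0.538 and endothelial ones to at most 0.867, and the fibroblast list, at most 10.3, consisted almost wholly of COL1A1.

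**Figure D1:**
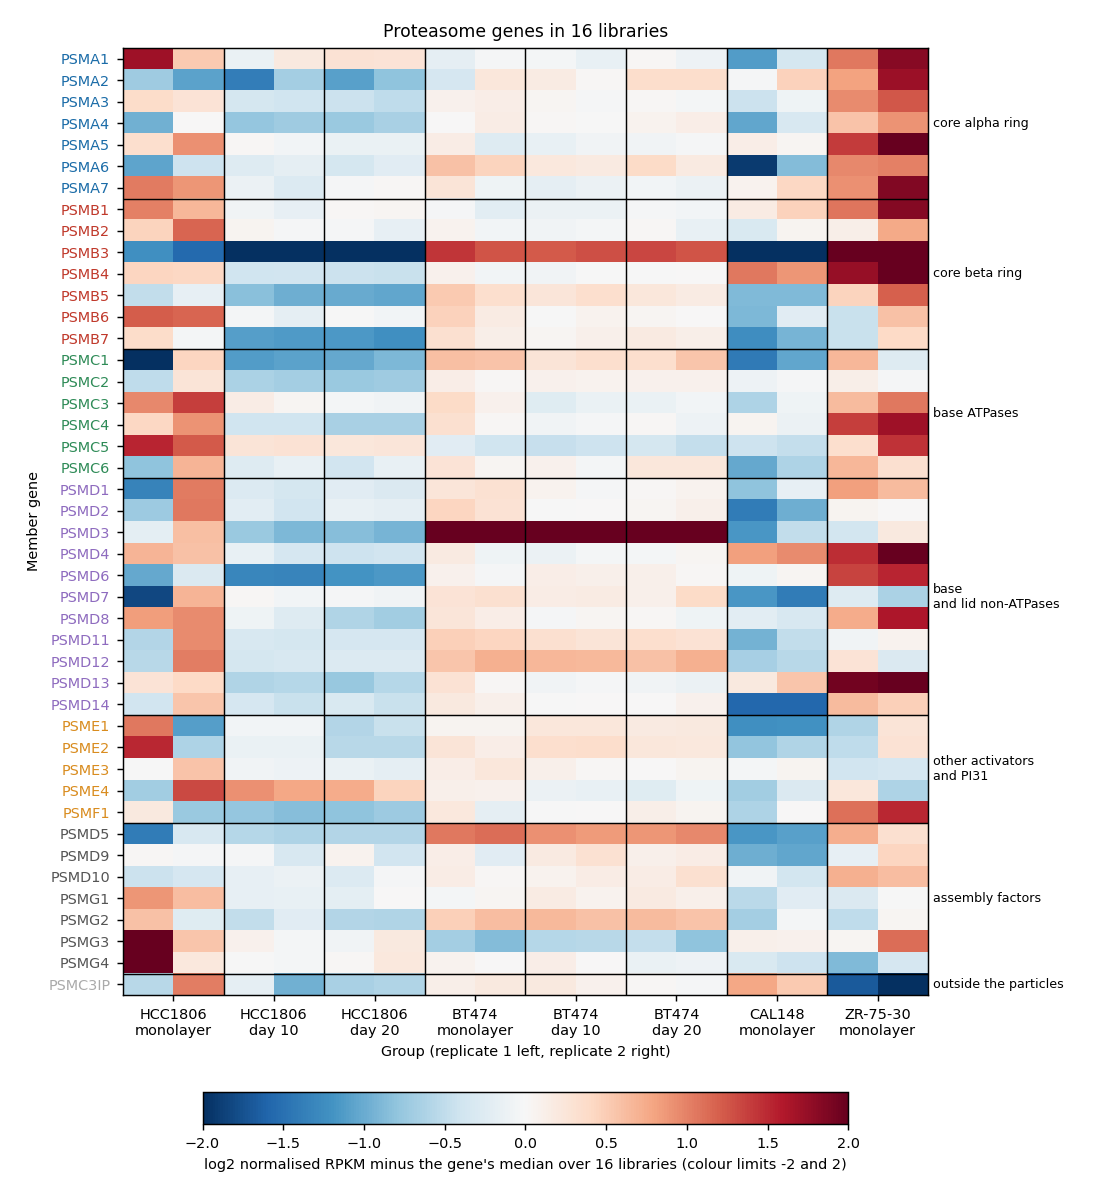
Levels of 44 members (rows, grouped by role) in the 16 libraries (columns, 2 per group), as log2 normalised RPKM minus the gene's median over the libraries, with colours ending at -2 and 2. HCC1806 spheroids are pale to blue for most members, PSMB3 is red in BT474 and ZR-75-30, PSMD3 is red in BT474, and the 2 HCC1806 monolayers differ from each other in many rows.

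The 2 HCC1806 monolayer libraries disagreed over the proteasome genes more than any other pair. The log2 difference between the replicates had an SD over the 44 members of 1.25, and 15 members differed by more than 1 on the log2 scale, against an SD of 0.54 in ZR-75-30 (4 members), 0.32 in CAL148 (1 member) and 0.07 to 0.19 in the 5 other groups (0 members). Over 11734 genes with at least 10 counts in every library the corresponding SDs were 1.49, 0.93, 0.66 and 0.20 to 0.33. Replicate 2 was higher for PSMC1 (2.34 and 25.6 normalised RPKM in replicates 1 and 2), an ATPase of the base, for the lid subunit PSMD7, which pairs with PSMD14, (6.31 and 35.7), for the scaffold subunit PSMD1 (12.3 and 64.1) and for PSME4 (6.14 and 24.8). Replicate 1 was higher for PSMG4 (16 and 2.17) and PSMG3 (147 and 47.7), chaperones of core assembly, and for PSME2 (77.2 and 17.7) and PSME1 (208 and 46.7). The catalytic PSMB6 (180.1 and 174), PSMB4 (113 and 111) and PSMD8 (81.4 and 88.1) were close in both.

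The gap went with coding length in the 2 groups where it was largest. In the HCC1806 monolayers the 17 members with 1000 or more coding bases were higher in replicate 2 for 15 of 17, with a median log2 difference of 0.80, and the 27 shorter ones for 10 of 27, with a median of -0.10. Across the 44 members the log2 difference between replicates and the log2 coding length had r = 0.62 (Spearman's rho 0.58). In ZR-75-30 the relation ran the other way (r = -0.56, rho -0.51), where it is the second library that has the high mitochondrial share, and in BT474 monolayers r was 0.04. In the 5 other groups r lay between -0.36 and 0.40, over gaps of the small size given above. These are descriptions across genes of the same 2 libraries each, which share library, depth and overlapping pathways. The balance of the 2 particles differed between the same libraries. Core genes had 603 to 831 coding bases and regulatory genes 930 to 2859, so this balance cannot be told apart from coding length. The mean log2 level of the 14 core genes minus that of the 17 regulatory genes was 0.51 and -0.57 in HCC1806 monolayer replicates 1 and 2, 0.16 and 0.73 in ZR-75-30, and -0.27 to 0.11 in the other 12 libraries.

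**Figure D2:**
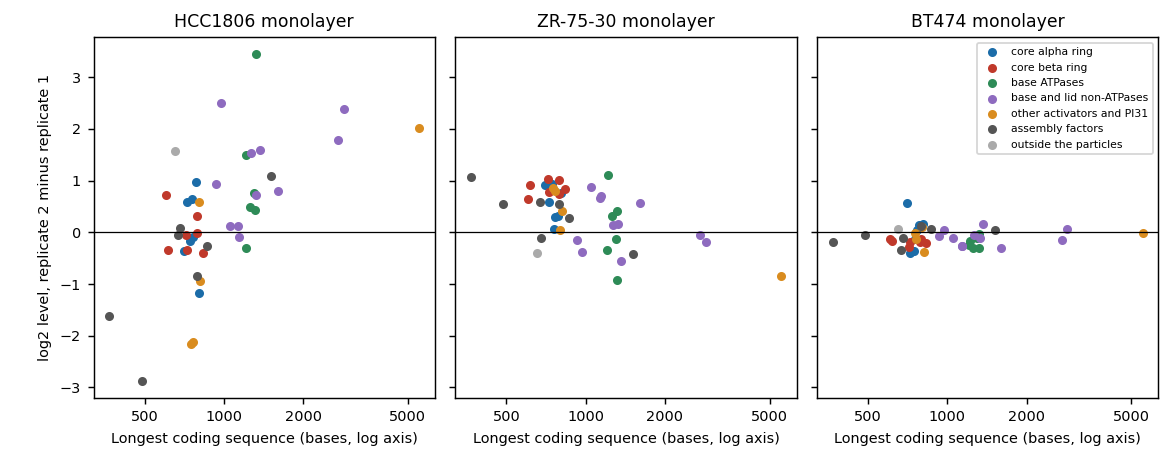
Difference in level between the 2 replicates (y axis, log2 of replicate 2 over replicate 1) against the longest coding sequence in bases (x axis, log scale) for 44 members in 3 monolayer groups, coloured by role. Points rise with length in HCC1806 (r = 0.62), fall in ZR-75-30 (r = -0.56) and lie near 0 in BT474 (r = 0.04).

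The first question is how proteasome genes differ between HCC1806 spheroids and monolayers. At day 20, 17 of 44 members were lower in spheroids at an adjusted p below 0.05 and 0 were higher (edgeR's quasi-likelihood test on the 12 HCC1806 and BT474 libraries, adjusted over 20929 genes). Of all genes tested, 4.85% were lower and 6.24% higher. At day 10, 15 members were lower and 0 higher, against 3.58% and 5.14% of all genes. All 15 were also among the 17, to which day 20 added PSMB2 and PSMB5. The median log2 fold change over the 44 members was -0.72 at day 10 and -0.81 at day 20, where that over all genes was 0, and 39 and 40 members were below 0. At day 10 both spheroid libraries lay under both monolayers for 25 members, above both for PSMA6 and PSMD10, and the groups overlapped for 17. At day 20 the counts were 26, 2 and 16. How many of all genes were separated in this way was not counted, so these counts describe the members only. In bulk RNA a lower level could be less RNA per cell or fewer cells that carry it, which cannot be told apart.

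These counts rest on the 2 monolayer libraries, which disagree. Without monolayer replicate 1 the median log2 fold change over members was -0.94 at day 10 and -0.96 at day 20, with 40 members below 0 on each day. Without replicate 2 it was -0.51 and -0.61, with 31 below 0 on each day. The values over all genes in these fits are not given here. Below 0 in both such fits were 29 members on each day, the 7 beta subunits among them on both days. The sign differed between the 2 fits for 13 members on each day, PSMC1, PSMD1, PSMD7 and PSME1 among them on both days. With HCC1806's own 6 libraries alone, where the monolayer pair sets the spread, 0 members were called on either day. In that fit 21 and 20 members had an unadjusted p below 0.05, and how many of all genes had one is not given here. The calls also depended on single spheroid libraries of the day. The mitochondrial, interferon and proliferation values above move with the choice of monolayer library, and their part in the result was not tested.

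In the beta ring all 7 beta subunits were lower at day 20, and 5 of 7 at day 10, with no overlap between spheroids and monolayers for any of them. PSMB6 stood at 180.1 and 174 normalised RPKM in monolayers, 75.9 and 68.8 at day 10 and 77.1 and 74.8 at day 20, a log2 fold change at day 20 of -1.23 ± 0.16 (SE, adjusted p = 0.00350). PSMB7 stood at 149 and 113, 54.1 and 52.6 and 52.4 and 49.8, a log2 fold change of -1.37 ± 0.18 (SE, adjusted p = 0.00365). Both spheroid ages sat well under both monolayers for these 2 catalytic subunits, and day 10 and day 20 were close to each other. PSMB5, the target of bortezomib, moved less: 96.7 and 121 in monolayers, 76.3 and 69.1 at day 10 and 67.9 and 66.5 at day 20, a log2 fold change of -0.70 ± 0.17 (SE, adjusted p = 0.0325) at day 20 that at day 10 had not passed the test, at -0.59 ± 0.17 (SE, adjusted p = 0.0653). PSMB3, a structural subunit, went from 183 and 145 to 64.7 and 69.2, a log2 fold change of -1.30 ± 0.19 (SE, adjusted p = 0.00523). The structural PSMB1, PSMB2 and PSMB4 had log2 fold changes of -0.83, -0.95 and -0.87.

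In the alpha ring 2 of 7 members were lower on both days. PSMA7, a subunit of the gate-forming ring, read 207 and 186 normalised RPKM in monolayers, 92.9 and 83.5 at day 10 and 99.4 and 103 at day 20, a log2 fold change at day 20 of -0.97 ± 0.17 (SE, adjusted p = 0.0112). PSMA3 read 37.3 and 34.9, 22.7 and 21.9 and 21.4 and 20.3, a log2 fold change of -0.80 ± 0.14 (SE, adjusted p = 0.00977). For both genes the 4 spheroid libraries lay under the 2 monolayers. PSMA5 just missed the threshold at day 20 with a log2 fold change of -0.79 ± 0.22 (SE, adjusted p = 0.05005). PSMA4 (13.3 and 26 in monolayers, 15.5 and 16.6 at day 20) lay between its 2 monolayers. PSMA6, whose level is uncertain because of the annotated overlap, was the 1 alpha subunit above both monolayers, at under 1 normalised RPKM in every HCC1806 library.

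Among the 6 ATPases PSMC3, PSMC4 and PSMC5 were lower on both days. PSMC4 stood at 55.5 and 77.6 normalised RPKM in monolayers, 31.4 and 31.4 at day 10 and 26.5 and 26.5 at day 20, a log2 fold change at day 20 of -1.33 ± 0.19 (SE, adjusted p = 0.00539). PSMC5 stood at 67.7 and 55, 28.3 and 28.9 and 27.6 and 28, a log2 fold change of -1.15 ± 0.16 (SE, adjusted p = 0.00498). PSMC3 had a log2 fold change of -1.25 ± 0.19 (SE, adjusted p = 0.00673). These 3 were separated from the monolayers in all 4 spheroid libraries. PSMC1 and PSMC6 were not: at day 20 PSMC1 stood at 9.33 and 10.2 between monolayers at 2.34 and 25.6, and PSMC6 at 10.4 and 12.2 between 7.71 and 21.8. For PSMC1 the fit without monolayer replicate 1 gave a log2 fold change at day 20 of -1.48 and the one without replicate 2 gave 2.07.

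Of the 11 other subunits of base and lid, 4 were lower on both days: the lid subunits PSMD3, PSMD8 and PSMD13 and the ubiquitin receptor PSMD4. PSMD8 read 81.4 and 88.1 normalised RPKM in monolayers, 43 and 38 at day 10 and 30.2 and 28.3 at day 20, a log2 fold change at day 20 of -1.54 ± 0.15 (SE, adjusted p = 0.00149), the most negative of the 17. PSMD3 had -1.15 ± 0.27 (SE, adjusted p = 0.0302) and PSMD13 -1.01. PSMD4 read 78.5 and 73.8, 43.9 and 38.7 and 36.7 and 37.3, a log2 fold change of -1.05 ± 0.16 (SE, adjusted p = 0.00641). Both genes differed little between the 2 monolayers. The remaining 7 did not pass the test, and for 5 of them (PSMD1, PSMD2, PSMD7, PSMD11 and PSMD12) the spheroids of both days lay between the 2 monolayers. PSMD14, the deubiquitinase of the lid, read 10.7 and 20.3 in monolayers and 11.2 and 10.2 at day 20, with a log2 fold change of -0.54 ± 0.26 (SE, adjusted p = 0.216). PSMD11 read 15.1 and 43.6 and 18 and 18, with -0.71 ± 0.39 (SE, adjusted p = 0.269), and PSMD1 read 12.3 and 64.1 and 26.7 and 25.4, with -0.56 ± 0.56 (SE, adjusted p = 0.563).

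None of the 5 genes for other activators and PI31 passed the test against the monolayers on either day. PSME3 read 30.5 and 45.7 normalised RPKM in monolayers and 27.9 and 27 at day 20, with a log2 fold change of -0.48 ± 0.20 (SE, adjusted p = 0.152). PSME4 read 6.14 and 24.8 and 16.7 and 13.6, with -0.03 ± 0.49 (SE, adjusted p = 0.988). PSMF1, which encodes PI31, read 27.1 and 14.2 and 13.5 and 14.4, with -0.58 ± 0.28 (SE, adjusted p = 0.218). In PSME4 the spheroids lay between the monolayers, and in PSMF1 1 monolayer lay in the range of the spheroids. PSME1 and PSME2 had log2 fold changes of -0.86 ± 0.52 (SE, adjusted p = 0.320) and -1.37 ± 0.52 (SE, adjusted p = 0.128), and are described with the change over time below.

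Of the 7 assembly factors only PSMG1, which pairs with PSMG2 to guide the alpha ring, was lower by the test. PSMG1 read 25.6 and 21.2 normalised RPKM in monolayers, 12.4 and 12.5 at day 10 and 12.2 and 14 at day 20, a log2 fold change at day 20 of -0.85 ± 0.17 (SE, adjusted p = 0.0157). Its partner PSMG2 read 22.2 and 12.4 and, at day 20, 9.81 and 9.71, with -0.83 ± 0.25 (SE, adjusted p = 0.0725). PSMG4 and PSMG3 had the most negative log2 fold changes of all members without passing the test, -2.17 ± 0.70 (SE, adjusted p = 0.0828) and -1.53 ± 0.43 (SE, adjusted p = 0.0553), and for both the monolayer replicate 1 was several times replicate 2. The base chaperones PSMD5 (0.17 ± 0.29 (SE, adjusted p = 0.750)), PSMD9 (-0.14 ± 0.28 (SE, adjusted p = 0.790)) and PSMD10 (0.23 ± 0.16 (SE, adjusted p = 0.378)) did not pass it either, and PSMD10, which encodes gankyrin, was the other member whose spheroids lay above both monolayers, at 20.2 and 23.9 against 18.2 and 19.3. PSMC3IP, outside the particles, had -1.07 ± 0.48 (SE, adjusted p = 0.184).

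**Figure D3:**
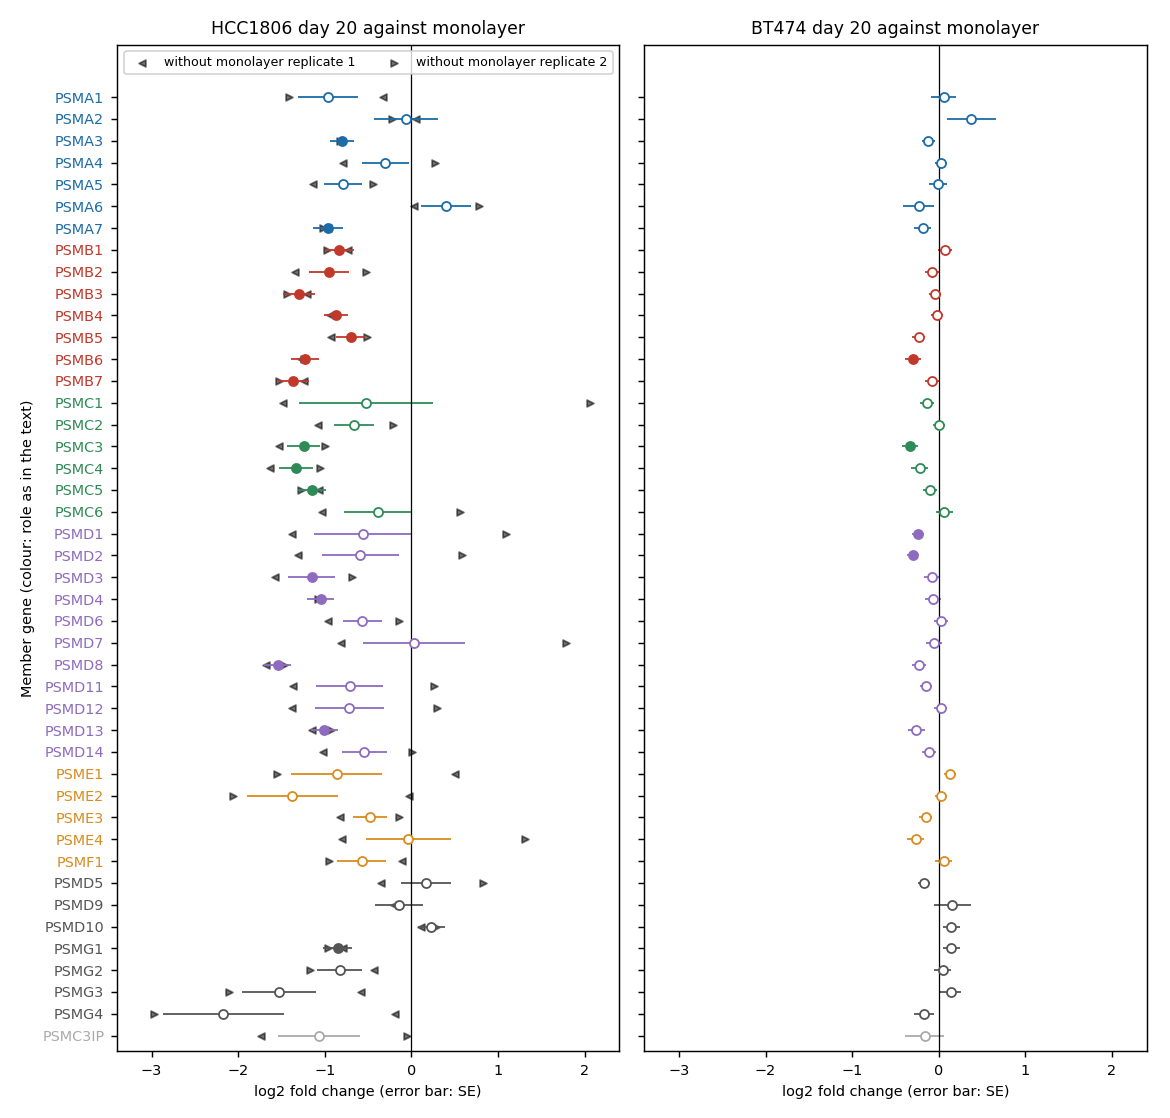
Log2 fold change of day 20 spheroids against monolayers (x axis) for 44 members (y axis, coloured by role) in HCC1806 and BT474; bars show 1 SE, filled circles an adjusted p below 0.05, and triangles the HCC1806 value without monolayer replicate 1 or 2. Both triangles of every beta subunit lie left of 0, and those of PSMC1, PSMD1 and PSMD7 lie on opposite sides of 0.

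Between day 10 and day 20 the HCC1806 spheroids changed in 3 of 44 members, all lower at day 20: PSMD8, PSME1 and PSME2 (edgeR on 10 libraries without the HCC1806 monolayers, 20606 genes, of which 3.6% were lower and 3.2% higher). Over both directions, the share of members called was near that of all genes. PSMD8 went from 43 and 38 to 30.2 and 28.3 normalised RPKM, a log2 fold change of -0.46 ± 0.08 (SE, adjusted p = 0.00399). PSME1 went from 97.1 and 96.5 to 66.7 and 74, a log2 fold change of -0.45 ± 0.07 (SE, adjusted p = 0.00146), and PSME2 from 24.6 and 24.8 to 18.4 and 18.4, a log2 fold change of -0.42 ± 0.07 (SE, adjusted p = 0.00361). In all 3 genes both day 20 libraries lay under both day 10 libraries. The other 41 members had log2 fold changes between -0.24 and 0.24. Of the 3 immunoproteasome genes, which are outside the rule, 2 were also lower at day 20: PSMB8 fell from 25.6 and 26.1 to 18.6 and 18.2 (log2 fold change -0.48 ± 0.10 (SE, adjusted p = 0.00754)) and PSMB10 had a log2 fold change of -0.91 ± 0.25 (SE, adjusted p = 0.0439). PSMB9 did not pass the test (-0.48 ± 0.18 (SE, adjusted p = 0.147)). The summed level of the 8 interferon-response genes was 793 to 801 at day 10 and 346 to 365 at day 20. PSME1 (208 and 46.7 in the monolayers), PSME2 (77.2 and 17.7) and PSMB8 (86.8 and 8.57) were, within the line, highest in monolayer replicate 1 and lowest in replicate 2. The part of the interferon genes' level in these changes was not tested. The 3 calls were lost (0 members) when the 12 libraries with the HCC1806 monolayers, all 16 libraries or the 6 HCC1806 libraries shared the spread, and without day 10 replicate 1 PSMD8 was not called.

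**Figure D4:**
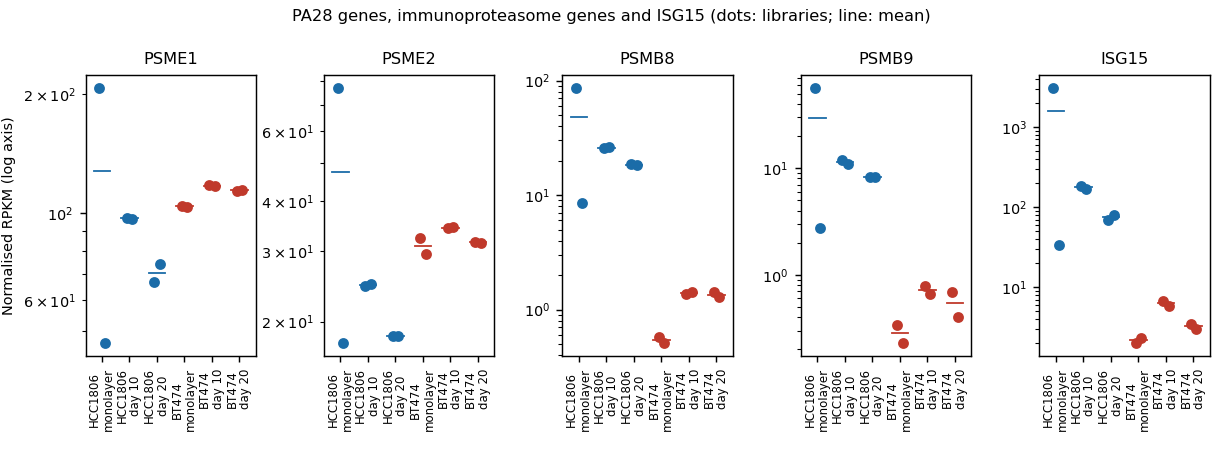
Levels in normalised RPKM (log axes) of the PA28 genes PSME1 and PSME2, the immunoproteasome genes PSMB8 and PSMB9, and ISG15 in HCC1806 and BT474 libraries; dots are libraries and lines group means. In HCC1806 each gene has its highest value in 1 monolayer library, while PSMB8, PSMB9 and ISG15 lie far lower in BT474 and PSME1 and PSME2 do not.

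In BT474 the proteasome genes differed little between culture forms. At day 10, 4 of 44 members were lower than in monolayers and 0 higher, and at day 20 again 4 and 0 (edgeR, the same 10 libraries; over 20606 genes, 5.67% were lower and 6.58% higher at day 10, and 7.24% and 7.4% at day 20). The share of members called lower was thus near that of all genes. PSMC3, PSMD1 and PSMD2 were lower on both days, PSMC1 at day 10 and PSMB6 at day 20. PSMC3 stood at 95.1 and 77 normalised RPKM in monolayers, 61.3 and 66.3 at day 10 and 66.6 and 70 at day 20, with log2 fold changes of -0.44 ± 0.09 (SE, adjusted p = 0.00727) and -0.34 ± 0.09 (SE, adjusted p = 0.0280). PSMD2, a scaffold of the base, stood at 153 and 138, 112 and 114 and 116 and 121, with -0.37 ± 0.07 (SE, adjusted p = 0.00469) and -0.30 ± 0.07 (SE, adjusted p = 0.0159). In both genes all 4 spheroid libraries lay under the 2 monolayers, by less than a log2 unit. PSMD1 had -0.26 ± 0.07 (SE, adjusted p = 0.0315) and -0.24 ± 0.07 (SE, adjusted p = 0.0401), PSMC1 -0.30 ± 0.08 (SE, adjusted p = 0.0339) at day 10, and PSMB6 -0.30 ± 0.09 (SE, adjusted p = 0.0488) at day 20, from 107 and 87.1 to 80.1 and 78.1.

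The other BT474 members stayed close to the monolayers, and only PSMA2, whose level is uncertain, exceeded 0.35 in either direction. The median log2 fold change over members was -0.10 at day 10 and -0.08 at day 20, with 33 and 28 members below 0. The catalytic PSMB5 stood at 195 and 172 in monolayers and 159.9 and 153 at day 20 (-0.23 ± 0.08 (SE, adjusted p = 0.0653)), and PSMB7 at 145 and 125 and 132 and 125 (-0.08 ± 0.08 (SE, adjusted p = 0.598)). PSME1 stood at 104 and 104 and 114 and 114 (0.13 ± 0.07 (SE, adjusted p = 0.241)), while PSMB8 rose on both days, from 0.571 and 0.511 in monolayers to 1.36 and 1.42 at day 10 and 1.42 and 1.28 at day 20 (log2 fold change at day 20 1.31 ± 0.14 (SE, adjusted p = 4.01e-05)). The 4 calls turned on single libraries: without BT474 monolayer replicate 1, 3 remained in number at day 10 and 2 at day 20 (1 of them higher), without replicate 2 there were 8 on each day, and without a spheroid library of the day 0 or 1. At day 20 there were 2 without any 1 of the 4 day 10 libraries of the 2 lines. Between BT474 day 10 and day 20, 0 members passed the test in edgeR, 0 had an unadjusted p below 0.05, and DESeq2 and limma called 0, where 0.0922% of all genes were higher and 0.189% lower; the log2 fold changes ran from -0.19 to 0.26.

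**Figure D5:**
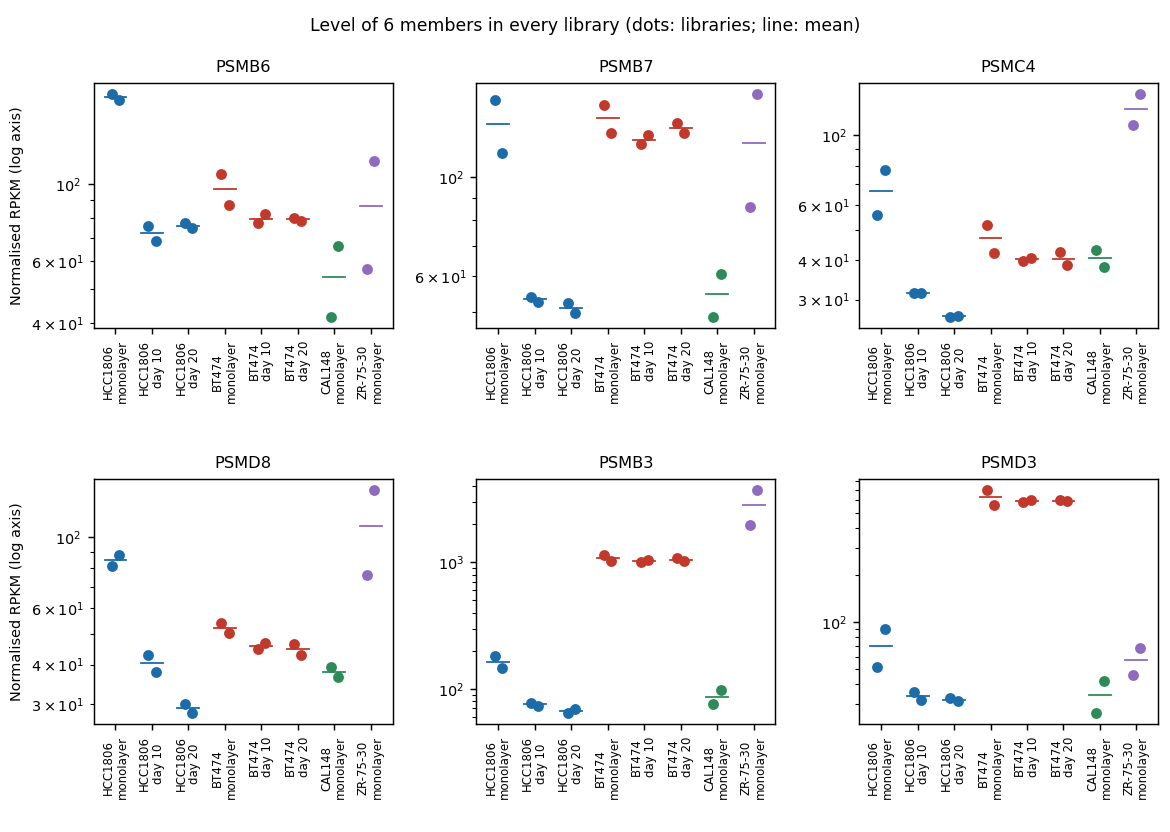
Levels in normalised RPKM (log axes) of 6 members in all 16 libraries by group; dots are libraries and lines group means. PSMB6, PSMB7, PSMC4 and PSMD8 lie lower in HCC1806 spheroids than in both monolayers, and PSMB3 in BT474 and ZR-75-30 and PSMD3 in BT474 lie several-fold above the other lines; CAL148 and ZR-75-30 have monolayers only.

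Whether the spheroid effect differs between the 2 lines was tested directly, as HCC1806's log2 fold change minus BT474's. At day 20 the difference passed the test for 4 of 44 members, each more negative in HCC1806: PSMD8 -1.32 ± 0.21 (SE, adjusted p = 0.0225), PSMB7 -1.29 ± 0.25 (SE, adjusted p = 0.0365), PSMB3 -1.26 ± 0.26 (SE, adjusted p = 0.0448) and PSMC5 -1.05 ± 0.23 (SE, adjusted p = 0.0498) (0.98% of 20929 genes were more negative and 1.79% more positive). PSMB7 illustrates it: 149 and 113 and 52.4 and 49.8 normalised RPKM in HCC1806 monolayers and day 20 spheroids, and 145 and 125 and 132 and 125 in BT474. At day 10 the difference passed for 0 members in edgeR, where 0.392% of all genes were more negative and 0.956% more positive. In the same test 20 members had an unadjusted p below 0.05, as had 3505 of 20929 genes. DESeq2 called 14 members and limma 7, and their shares of all genes are not given here. Over the members the median difference was -0.66 at day 10 and -0.77 at day 20. Leaving out any 1 of the 10 libraries other than the HCC1806 monolayers removed the 4 calls at day 20. The median difference at day 20 was -0.90 without monolayer replicate 1 of HCC1806 and -0.60 without replicate 2. For the change from day 10 to day 20 the lines differed in PSME1 only (-0.42 ± 0.10 (SE, adjusted p = 0.0396), where 1.11% of 20606 genes were more negative and 1.56% more positive), which read 117 and 117 and 114 and 114 in BT474. Over both directions, 1 of 44 members is near the share of all genes. That call was lost (0 members) without either day 10 library of HCC1806, its day 20 replicate 1 or any BT474 spheroid library.

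The 4 lines as monolayers differed in 19 of 44 members (edgeR, joint test over the 8 monolayer libraries), where 33.9% of 19594 genes did. ZR-75-30 had the highest line mean for 22 members, HCC1806 for 12, BT474 for 9 and CAL148 for 1, and CAL148 had the lowest for 30. The TMM factors were 0.901 and 0.641 in ZR-75-30, 1.25 and 1.26 in CAL148 and 0.783 to 1.02 in the HCC1806 and BT474 monolayers. A smaller factor raises every level of a library, and the ranks without this scaling are not given here. The median ratio of the highest to the lowest line mean was 2.99. Both ZR-75-30 libraries lay above the 6 others for 14 members, and both BT474 libraries for 2, PSMD3 and PSMD5. How many of all genes were separated in this way was not counted. The 19 calls depended on single libraries. Fewer members were called without any 1 of the BT474, CAL148 or ZR-75-30 libraries, and more without either HCC1806 library. More were also called without the 2 libraries of high mitochondrial share, an alternative chosen after seeing the data. The shares of all genes called in these fits are not given here. Line and medium cannot be told apart for lines kept in different media.

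PSMB3 and PSMD3 differed most between lines. PSMB3 (chromosome 17, 38752736 to 38764231, GRCh38) stood at 1970.4 and 3711 normalised RPKM in ZR-75-30, 1149.8 and 1019 in BT474, 183 and 145 in HCC1806 and 75.4 and 98 in CAL148 monolayers (adjusted p = 0.00176). PSMD3 (chromosome 17, 39980797 to 39997960) stood at 695 and 563 in BT474, 45.9 and 67.9 in ZR-75-30, 51.7 and 89.9 in HCC1806 and 26.3 and 42.1 in CAL148 (adjusted p = 0.00252). BT474 was high in both genes and ZR-75-30 in PSMB3 alone, with no overlap with the 4 HCC1806 and CAL148 libraries for those. Both genes flank ERBB2, the receptor gene amplified in these 2 lines: PSMB3 starts 0.935 megabases before the start of ERBB2 and PSMD3 0.293 megabases after it. Over the mean of the 4 HCC1806 and CAL148 monolayers, ERBB2 was 31.4-fold higher in BT474 and 40.7-fold in ZR-75-30, PSMB3 8.65-fold and 22.6-fold, and PSMD3 11.98-fold and 1.08-fold. Copy number was not measured here, and its part in these levels was not tested.

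The other 6 members on chromosome 17 did not share that pattern. PSMB6, PSMD11, PSMC3IP, PSME3, PSMC5 and PSMD12 had BT474 levels of 0.483 to 1.54 times and ZR-75-30 levels of 0.187 to 1.20 times the mean of the 4 HCC1806 and CAL148 monolayers. In BT474 spheroids PSMB3 stood at a similar level (1000.3 and 1049 at day 10 and 1083 and 1027 at day 20), as did PSMD3 (588 and 605 and 601 and 595), with log2 fold changes at day 20 of -0.04 ± 0.07 (SE, adjusted p = 0.795) and -0.08 ± 0.09 (SE, adjusted p = 0.646). Among the beta ring in BT474 monolayers PSMB3 was the highest per length, followed by PSMB5 at 195 and 172.

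The 14 members with both ZR-75-30 libraries above the 6 others were PSMA2 to PSMA6, PSMB1, PSMB3, PSMB4, PSMC4, PSMD4, PSMD6, PSMD10, PSMD13 and PSMF1, from several roles. Other core genes had their highest line mean elsewhere: PSMB6 in HCC1806, and PSMB7 in BT474 at 135 against 131 in HCC1806. The highest single library for PSMB7 was ZR-75-30 replicate 2 at 153, and neither gene passed the test between the lines. PSMB4 read 278 and 561 normalised RPKM in ZR-75-30, 173 and 154 in CAL148, 113 and 111 in HCC1806 and 88.2 and 80.3 in BT474 (adjusted p = 0.0144). PSMA5, of the alpha ring, read 43.4 and 64.9 in ZR-75-30 and 18.1 and 13.8, 17.9 and 16.8 and 20.6 and 31 in BT474, CAL148 and HCC1806 (adjusted p = 0.0236). In both genes ZR-75-30 was above all others, and the order of the remaining lines differed. PSMD13 read 57.6 and 91.7 in ZR-75-30 and 15.4 to 22.1 in the other 3 lines (adjusted p = 0.00751), and PSMD6 read 16.4 and 18.4 and 3.17 to 6.83 (adjusted p = 0.0145). The levels of the 2 ZR-75-30 libraries differed by a median of 0.48 on the log2 scale over the members, and the more mitochondrial library was higher for 32 of 44. Its part in these levels was not tested. PSMD5, a base chaperone, read 39.3 and 40.7 in BT474, 31.3 and 23.4 in ZR-75-30, 7.13 and 15.1 in HCC1806 and 8.36 and 8.91 in CAL148 (adjusted p = 0.0176). PSMC2 had the largest adjusted p (adjusted p = 0.989), with values from 30.4 to 51.6, and PSMB7, PSMC1 and PSMD2 did not pass the test either.

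Genes that work with the proteasome, a list of 32 with the immunoproteasome subunits, ubiquitin genes, shuttle factors and regulators, were described the same way; the list was chosen with earlier results known. Against monolayers, HCC1806 spheroids were lower in 4 of 32 at day 10 and 6 at day 20 and higher in 0, with median log2 fold changes of -0.39 and -0.40; of all genes, 3.58% and 4.85% were lower and 5.14% and 6.24% higher. The 4 were ADRM1, a ubiquitin receptor of the base, POMP, the maturation factor of the core, UFD1, a cofactor of the VCP unfoldase, and TXNL1, a redox protein of the regulatory particle. SEM1, a small subunit of the lid, was among those added at day 20. POMP stood at 182 and 126 normalised RPKM in monolayers and 81.3 and 77.9 at day 20 (log2 fold change -0.96 ± 0.19 (SE, adjusted p = 0.0161)), and ADRM1 at 57.4 and 66.7 and 29 and 30.9 (-1.06 ± 0.17 (SE, adjusted p = 0.00827)). NFE2L1, the transcription factor named above, stood at 55.7 and 50.4 in HCC1806 monolayers, 42.3 and 38.7 at day 10 and 47.4 and 49.4 at day 20, and only the change from day 10 to day 20 passed (0.26 ± 0.07 (SE, adjusted p = 0.0439)). In BT474, PSMB8 and PSMB9 were higher and ECPAS, a proteasome adaptor, lower on both days, and ZFAND2A was lower at day 20. Between the 4 monolayer lines 9 of 32 differed, where 33.9% of all genes did, so the share of the list was not above that of all genes. NFE2L1 stood at 726 and 530.2 in ZR-75-30 and 28.6 to 55.7 in the others (adjusted p = 0.00123), and VCP at 636 and 601 in BT474 and 38.3 to 160 elsewhere (adjusted p = 0.0213). NFE2L1 also lies on chromosome 17, 8.36 megabases after the start of ERBB2. The part of its level in those of the members was not tested.

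The motifs printed above were also counted by the change in HCC1806. Of the 17 members lower at either day, 12 had a promoter in the table, of which 5 held TGACNNNGC and 9 CCAAT; of the 27 others tested, 26 had one, of which 9 held TGACNNNGC and 10 CCAAT. One or the other motif lay in 10 of 12 and in 18 of 26. By role, TGACNNNGC lay in 4 of 7 promoters of assembly factors, 3 of 6 of the other activators and PI31, 3 of 11 of the base and lid non-ATPases, 2 of 7 of the ATPases, 1 of 5 of the beta ring and 1 of 9 of the alpha ring.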

How the data were processed

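Poly(A) RNA of 16 libraries was sequenced as paired-end reads. The authors deposited raw counts per gene and FPKM values; alignment with HISAT2 2.2.1 to GRCh38 (hg38) and counting with featureCounts 2.0.6 are named in the submitters' processing notes. The strand, multi-mapping and overlap settings are not given in the sources used here. The deposited FPKM values were used only for an alternative with limma, on log2(FPKM + 1).

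The deposited counts were tested with edgeR 4.0.16 in R 4.3.3 (quasi-likelihood F test, TMM scaling, minimum count 10 and total 15, robust fit), with Benjamini-Hochberg adjustment over all genes tested and a threshold of 0.05. HCC1806 spheroids were compared with monolayers in a fit of 12 libraries. BT474 comparisons and changes between day 10 and day 20 used 10 libraries, without the HCC1806 monolayers, and lines were compared over the 8 monolayers. Alternatives were DESeq2 1.42.0, limma 3.58.1, other size factors, filters and sample sets, a block for the replicate number, and leaving out each library. The scripts were tested on simulated data. Tables and figures were made with Python 3.11.15, pandas 2.3.3 and matplotlib 3.10.9.

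Total counts of 29696358 to 72489002 per library set the counting precision; the 2 libraries of a group limit the rest. The counts of every replicate pair differed by more than sampling noise (chi-square per degree of freedom 11.8 to 1101), so none was treated as 1 library. Across groups, the deviations of same-numbered libraries had correlations of -0.11 to 0.08 over 15 pairs of groups, so the numbers were not taken to pair the samples.

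Full values are given for a panel of 24 members (the catalytic subunits, 1 or more of each role, all other activators and all assembly factors) and for the 3 highest and 3 lowest called members of each comparison. The members and lists were chosen with earlier results of these data known. Some genes of the list of proteasome partners are not reported by name here.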

Additional observations from a re-analysis of the deposited data

Results flagged for a closer look

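The spheroid effect at day 20 differed between the lines, by the test of the difference itself, for 4 members. The log2 fold change in HCC1806 minus that in BT474 was -1.32 for PSMD8, -1.29 for PSMB7, -1.26 for PSMB3 and -1.05 for PSMC5. For the change from day 10 to day 20 the same difference was -0.42 for PSME1. The first 4 use the 2 HCC1806 monolayer libraries, whose mitochondrial shares were 14.9% and 0.559%, and the part of that gap in them was not tested. The PSME1 difference compares spheroid libraries only, but the fit of 10 libraries that set its spread also held the BT474 monolayers. That call was lost (0 members) with 12 or all 16 libraries in the fit.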

How the results depend on the processing

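Each count of members called was recomputed under the alternatives that apply to its comparison; fits of 1 line alone were run for the comparisons within a line, and the fit of 12 libraries for those whose values above come from 10. With all 16 libraries in 1 fit, the HCC1806 counts were 7 at day 10 and 11 at day 20 against monolayers and 0 between the days, the BT474 counts 0 and 0 against monolayers, the line differences 0 at day 20 and 0 between the days, and the 4 lines differed in 32. DESeq2 called 23 and 26 in HCC1806 and line differences in 14, 15 and 2 (day 10, day 20, between the days). The shares of all genes called under the alternatives of this paragraph are not given here, so a higher count need not be particular to the members. With the libraries of HCC1806 alone the counts were 0, 0 and 0, and with 12 libraries the change between days in HCC1806, both BT474 effects and the line difference between the days all had 0. Limma called 2 in BT474 at day 20 and line differences in 7 at day 10 and 12 at day 20. A stricter filter (minimum count 50) gave line differences in 4 and 9, and no filter gave 2 at day 10 and 2 between the days. The replicate block, tried although the numbers share no deviation, gave line differences in 1 at day 20 and 0 between the days and 6 members between the 4 lines, and changed no other count by over 1.5 times. Without the 2 libraries of high mitochondrial share, chosen after seeing the data, the 4 lines differed in 37.

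Leaving out each library in turn gave 0 to 37 and 1 to 36 members in HCC1806 at day 10 and day 20, 2 to 4 between the days, 0 to 8 in BT474 on both days and 0 to 0 between them, 0 to 33, 0 to 35 and 0 to 2 for the line differences, and 3 to 34 for the 4 lines. Where 1 library was left in a group, it was assumed to vary like the other groups. The shares of all genes called in these fits are not given here. None of the members called in the results above reversed under any alternative run. Among HCC1806 members not called there, the sign differed for 13 on each day between the fits without each monolayer library. The counts without an HCC1806 monolayer library include members called higher in spheroids. The cause of these shifts was not tested beyond the number of libraries in each fit.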
